A study of Mus musculus with 36 samples.

Results

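Family 4 of the cytochromes P450 holds the enzymes that hydroxylate fatty acids at or next to their last carbon, and 10 of its mouse genes were followed here in liver: Cyp4a10, Cyp4a14, Cyp4a31, Cyp4a32, Cyp4a12a, Cyp4a12b, Cyp4f13, Cyp4f14, Cyp4f15 and Cyp4v3. They were taken by name from a count table of 53715 gene identifiers, after the Ensembl identifiers had been matched to GENCODE symbols, and all 10 were found. The set was chosen as a gene family, with earlier results of these data known. All 10 passed the filter on low counts that left 14068 genes for testing.

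A P450 of this family binds haem through a cysteine and uses oxygen and electrons from cytochrome P450 reductase to add a hydroxyl group to the far end of a fatty acid. Alcohol and aldehyde dehydrogenases then turn the product into a dicarboxylic acid, which peroxisomes shorten by beta-oxidation. Cyp4a10 and Cyp4a14 are textbook targets of PPARA, the fatty acid-activated nuclear receptor of hepatocytes, and are known to be induced by fasting and by fibrate drugs. Cyp4a12a is the male-predominant member that hydroxylates arachidonic acid, Cyp4f enzymes act on leukotrienes and very long chain fatty acids, and Cyp4v3 is the mouse counterpart of human CYP4V2, which is mutated in Bietti crystalline dystrophy.

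The livers came from male C57BL/6 mice aged 10 weeks, fed from the age of 4 weeks and for 6 weeks on the purified AIN93G diet alone (control), on AIN93G with 10% by weight of red tomato powder (red), or on AIN93G with 10% of tangerine tomato powder (tangerine). Each diet had 12 libraries of total liver RNA, 1 per mouse, although the labels put the group size at 11 to 12. The diets shared strain, sex and age, no genetic change was made, and a library is named here by its diet and mouse number. Nothing in the labels says whether mice shared a cage or a day of collection, so the p-values measure the spread between these mice.

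Total counts ran from 21290169 to 33810573 per library. Markers of hepatocytes were high in all 36 livers, at 88881 to 126344 summed CPM (counts scaled to a common library total). Red 186 stood apart with 5257 counts over the 5 T cell markers, where tangerine 197, the highest tangerine library, had 95, and with 207 counts over the 4 adipocyte markers. Tangerine 198 had 550 counts over the 4 kidney markers and tangerine 216 had 298 over the 8 pancreas markers. Tangerine 192 was the highest for the 5 cholangiocyte markers, at 111 summed CPM beside a tangerine median of 20.8. The level of these markers was correlated across livers, after removal of the diet means, with Cyp4f15 (r = -0.566, and -0.466 without tangerine 192), Cyp4f13 (-0.459 and -0.352) and Cyp4a32 (-0.426 and -0.323). Markers of other cell types had correlations of similar size. Cyp4v3 had r = 0.543 with Kupffer cell markers (0.549 without red 177) and 0.543 with sinusoidal endothelial markers (0.533 without control 245). Cyp4a12a had 0.445 with blood markers (0.479 without red 170), and Cyp4f14 had 0.418 with hepatocyte markers (0.405 without red 157). Cyp4f13 had -0.549 with T cell markers, and -0.041 without red 186. These values describe 36 livers, with both quantities read from the same library. Red 186 was also the lowest red library for Cyp4f13, Cyp4f14, Cyp4f15 and Cyp4v3, and the part of these markers in the results was not tested beyond the values given without red 186, tangerine 198 and tangerine 216, or without these 3 and tangerine 192. In whole liver, fewer hepatocytes and less RNA per hepatocyte cannot be told apart.

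The coding stretch around the haem-binding cysteine is shown for the 10 genes because it displays how close the members are and which of them short reads can separate. It was read from the GENCODE transcripts (GRCm38) as 45 bases, 5′ to 3′ on the coding strand, with the cysteine codon in capitals. In every member it crosses the junction of 2 exons, so the genomic span given for each of them below includes an intron.
Cyp4a10 (chr4:115529502-115532558, plus strand, exons 11 and 12): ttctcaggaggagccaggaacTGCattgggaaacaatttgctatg
Cyp4a31 (chr4:115574950-115577963, plus strand, exons 11 and 12): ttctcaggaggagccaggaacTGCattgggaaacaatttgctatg
Cyp4a32 (chr4:115614880-115621461, plus strand, exons 11 and 12): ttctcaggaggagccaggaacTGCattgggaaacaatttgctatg
Cyp4a14 (chr4:115487284-115489805, minus strand, exons 11 and 12): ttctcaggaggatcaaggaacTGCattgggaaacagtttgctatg
Cyp4a12a (chr4:115328986-115331861, plus strand, exons 11 and 12): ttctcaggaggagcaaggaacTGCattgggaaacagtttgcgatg
Cyp4a12b (chr4:115435240-115438084, plus strand, exons 11 and 12): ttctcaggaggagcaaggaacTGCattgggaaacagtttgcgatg
Cyp4f13 (chr17:32924927-32925340, minus strand, exons 12 and 13): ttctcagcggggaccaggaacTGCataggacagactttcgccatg
Cyp4f14 (chr17:32905651-32906065, minus strand, exons 11 and 12): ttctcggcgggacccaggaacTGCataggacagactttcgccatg
Cyp4f15 (chr17:32702398-32702816, plus strand, exons 12 and 13): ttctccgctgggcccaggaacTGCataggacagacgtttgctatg
Cyp4v3 (chr8:45307092-45308407, minus strand, exons 10 and 11): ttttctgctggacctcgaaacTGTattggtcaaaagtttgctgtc
The stretch was identical in Cyp4a10, Cyp4a31 and Cyp4a32, and identical in Cyp4a12a and Cyp4a12b. Those 2 groups differed at 3 of the 45 positions. Cyp4a14 differed from Cyp4a10 at 3 positions and from Cyp4a12a at 2. From Cyp4a10 the Cyp4f genes differed at 12 or 13 positions and Cyp4v3 at 15. Cyp4v3 was the only one of the 10 with TGT as its cysteine codon.

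Over the whole coding sequence, Cyp4a12a and Cyp4a12b were 98.5% identical (23 differing positions in 1527 bases). Cyp4a10 was 97.2% identical to Cyp4a32 and 96.6% to Cyp4a31. Cyp4a14 was further away, at 75.6% identity to Cyp4a10. Among the Cyp4f members identity was 74.8% to 80.0%, and between Cyp4a and Cyp4f members it was 56.3% to 58.8%. Of all 50-base windows of the longest transcript, 48.9% of those of Cyp4a12a were also found in Cyp4a12b, and 30.5% of those of Cyp4a10 were found in another Cyp4 gene. The share was 46.8% for Cyp4a32, 20.1% for Cyp4a31, 2.45% to 2.72% for the 3 Cyp4f members, 0.245% for Cyp4a14 and 0 for Cyp4v3. How reads that fit several genes were counted is not given in the sources used here, so the split of counts within Cyp4a12a and Cyp4a12b, and within Cyp4a10, Cyp4a31 and Cyp4a32, is uncertain.

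Levels between genes were compared as CPM per kilobase of exon (RPKM), as the median of the 36 livers. Cyp4a12a was the most abundant member at 192 RPKM, followed by Cyp4f14 at 153, and Cyp4a12a was the higher of this pair in 32 of 36 livers. Cyp4v3 at 54.5 RPKM and Cyp4f15 at 43.6 RPKM came next, with Cyp4v3 higher in 32 of 36 livers. Cyp4a12b, Cyp4a10 and Cyp4f13 followed at 21.7, 18.2 and 16.4 RPKM. Cyp4a10 was not separated from its neighbours: Cyp4a12b exceeded Cyp4a10 in 19 of 36 livers and Cyp4a10 exceeded Cyp4f13 in 20 of 36. Cyp4a12b and Cyp4f13 were not compared liver by liver. Cyp4a32 at 12.1 RPKM, Cyp4a14 at 6.27 RPKM and Cyp4a31 at 1.04 RPKM closed the order. By the median of each diet, Cyp4a10 had rank 5 of 10 in control livers (20.8 RPKM), 6 in red livers (21.8) and 8 in tangerine livers (10.0). In tangerine livers Cyp4a12b was at 20.5 RPKM and Cyp4a32 at 11.2. By the mean, Cyp4a10 had rank 5 in each diet, at 20.3, 30.0 and 31.8 RPKM in control, red and tangerine livers. The place of Cyp4f13 depends on the length used, because its 14 annotated transcripts together cover 4441 bases and the longest alone 1752, which puts it at 41.6 RPKM. For Cyp4a32 the annotated exons cover 1536 bases and the coding sequence 1530, so its gene model holds almost no UTR.

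**Figure D1:**
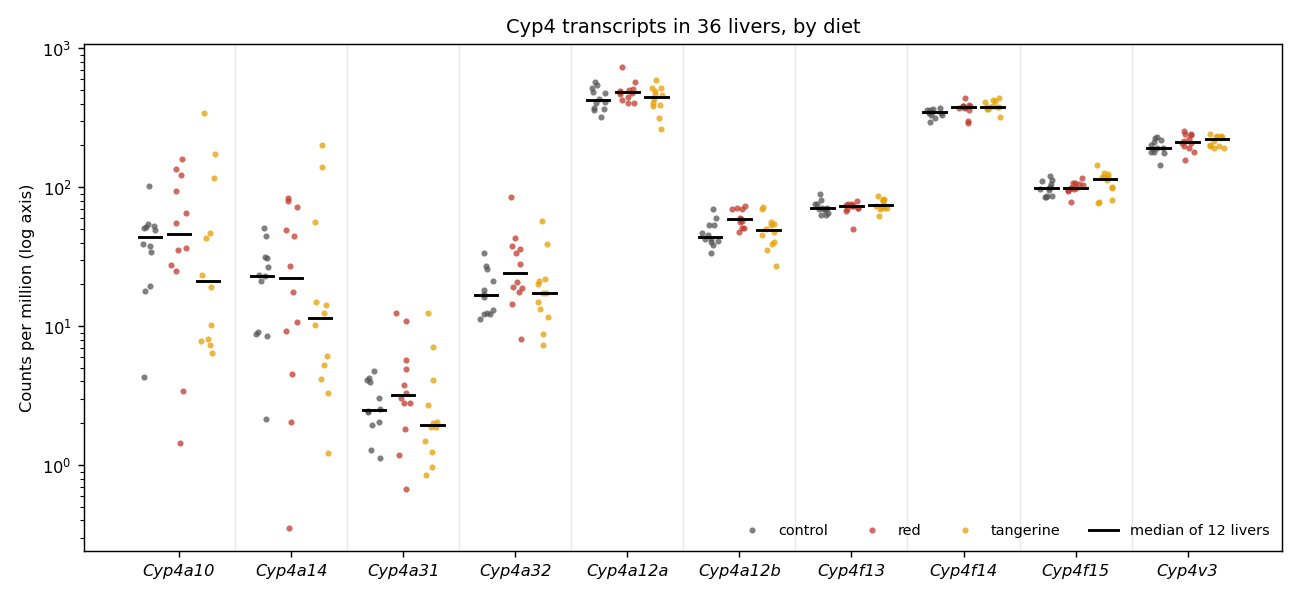
Level of the 10 Cyp4 transcripts in CPM on a log axis, 1 point per liver (12 per diet), with the median of each diet as a bar. Cyp4a10 and Cyp4a14 spread over more than 1 log10 unit within every diet, and the 3 Cyp4f genes and Cyp4v3 stay in a narrow band.

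Cyp4a10 and Cyp4a14 are the inducible hydroxylases of medium and long chain fatty acids, and they lie side by side on chromosome 4 (chr4:115518264-115533649, plus strand, and chr4:115486200-115496142, minus strand, GRCm38). Cyp4a10 had a lowest, median and highest level of 4.31, 43.9 and 102 CPM in control livers, 1.45, 46.0 and 159 CPM in red livers, and 6.43, 21.2 and 341 CPM in tangerine livers. The ranges of the 3 diets overlapped, and both ends of the scale were reached by tomato-fed mice. Cyp4a14 had 2.15, 23.1 and 50.9 CPM in control, 0.354, 22.4 and 84.4 CPM in red, and 1.23, 11.4 and 200 CPM in tangerine livers. For both genes 3 red and 3 tangerine livers lay above every control liver, while 2 red livers lay below every control liver, as did 1 tangerine liver for Cyp4a14.

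The mean and the median of these genes pointed in different directions in tangerine livers. Cyp4a10 averaged 42.8 ± 24.7 CPM (SD, n = 12) in control and 67.0 ± 101 CPM in tangerine livers, a ratio of means of 1.57, and yet the ratio of medians was 0.48. Cyp4a14 averaged 23.4 ± 14.9 CPM in control and 39.0 ± 64.2 CPM in tangerine livers, with a ratio of means of 1.67 and of medians of 0.49. Tangerine 225 and tangerine 226 carried the tangerine means, at 174 and 341 CPM of Cyp4a10 and at 140 and 200 CPM of Cyp4a14. In red livers the means were 63.4 ± 52.5 CPM for Cyp4a10 and 33.5 ± 31.6 CPM for Cyp4a14, and the ratios of medians to control were 1.05 and 0.97.

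Between single livers these were among the most variable genes of the table. The biological coefficient of variation, the spread between mice of 1 diet after counting error, was 111% for Cyp4a14 and 99.2% for Cyp4a10, which gave them ranks 4 and 12 of 14068 genes, against a median of 15.2%. From red 156 to tangerine 226 the level of Cyp4a14 differed 566-fold (9 counts at the lowest) and that of Cyp4a10 235-fold. The 9 highest of the 36 livers held 67.6% of all Cyp4a14 and 63.0% of all Cyp4a10 signal, where Cyp4f13 had 28.0% in its own 9 highest.

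**Figure D2:**
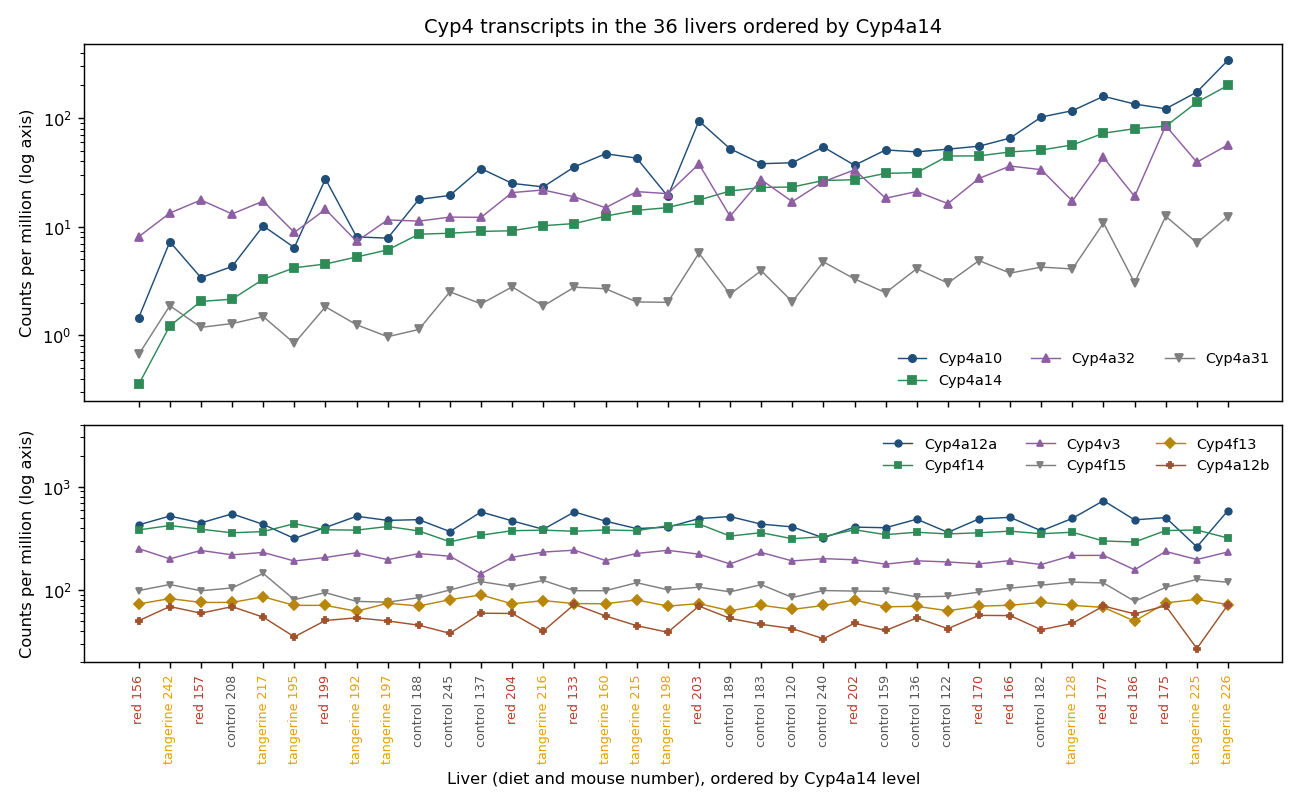
The 36 livers in the order of their Cyp4a14 level, with CPM on log axes: Cyp4a10, Cyp4a14, Cyp4a31 and Cyp4a32 above, the other 6 members below. Cyp4a10 follows Cyp4a14 from red 156 to tangerine 226, the lower panel varies less, and names of all 3 diets are mixed along the axis.

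Cyp4a31 (chr4:115563649-115579015, plus strand) and Cyp4a32 (chr4:115600969-115621602, plus strand) are the close copies next to Cyp4a10. Over the 36 livers their median levels per kilobase were below that of Cyp4a10. In tangerine livers the median of Cyp4a32 (11.2 RPKM) lay above that of Cyp4a10 (10.0 RPKM). The tangerine means went the other way, at 13.5 RPKM for Cyp4a32 and 31.8 RPKM for Cyp4a10. Cyp4a31 had a lowest, median and highest level of 1.13, 2.50 and 4.75 CPM in control, 0.668, 3.18 and 12.5 CPM in red, and 0.845, 1.95 and 12.4 CPM in tangerine livers. Cyp4a32 had 11.3, 16.7 and 33.5 CPM in control, 8.10, 24.2 and 85.1 CPM in red, and 7.33, 17.2 and 56.7 CPM in tangerine livers. For each gene 4 red livers exceeded every control liver, with red 175 the highest of all 36. Their coefficients of variation, 67.2% and 51.1%, lay between those of Cyp4a10 and of the other members.

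Cyp4a12a (chr4:115299046-115332815, plus strand) and Cyp4a12b (chr4:115411624-115439034, plus strand), the male-predominant arachidonic acid hydroxylases, varied far less than Cyp4a10 but more than the median gene. Cyp4a12a had 320, 422 and 570 CPM in control, 404, 483 and 733 CPM in red, and 262, 448 and 588 CPM in tangerine livers. Cyp4a12b had 33.9, 44.0 and 69.2 CPM in control, 47.8, 59.1 and 72.8 CPM in red, and 27.2, 49.0 and 72.2 CPM in tangerine livers. All 12 red livers lay above the control median of Cyp4a12b and 4 of them above every control liver. Tangerine 225, the second highest liver for Cyp4a14, was the lowest of the 36 for both Cyp4a12 genes. Coefficients of variation were 18.8% for Cyp4a12a and 20.6% for Cyp4a12b, above those of 66.3% and 72.1% of all tested genes.

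The 3 Cyp4f members lie on chromosome 17: Cyp4f13 at chr17:32924688-32947402 (minus strand), Cyp4f14 at chr17:32905070-32917342 (minus strand) and Cyp4f15 at chr17:32685627-32703352 (plus strand). Cyp4f14, a hydroxylase of leukotrienes and of vitamin E, had a lowest, median and highest level of 293, 347 and 374 CPM in control, 292, 376 and 436 CPM in red, and 319, 381 and 439 CPM in tangerine livers. Of the 12 tangerine livers, 11 lay above the control median and 9 above every control liver. Of the 12 red livers, 10 lay above the control median and 7 above every control liver. Cyp4f15 had 84.4, 98.1 and 121 CPM in control, 77.9, 98.8 and 117 CPM in red, and 76.4, 116 and 145 CPM in tangerine livers, where 3 livers were above and 3 below every control liver. Cyp4f13 had 63.0, 70.5 and 89.8 CPM in control, 50.1, 73.5 and 80.0 CPM in red, and 62.4, 74.2 and 86.0 CPM in tangerine livers, and no tomato-fed liver exceeded the highest control. Their coefficients of variation were 10.2% to 14.9%, below the median gene.

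Cyp4v3 (chr8:45304944-45333216, minus strand), a hydroxylase of medium chain and polyunsaturated fatty acids, had 144, 192 and 231 CPM in control, 157, 212 and 252 CPM in red, and 191, 221 and 243 CPM in tangerine livers. Of the 12 livers of each tomato diet, 10 red and 11 tangerine were above the control median, and 4 red and 3 tangerine livers were above every control liver. The gene overlaps Gm45753 on the same strand, which had 246 counts over all 36 libraries, against 2873 counts of Cyp4v3 in its lowest library alone.

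None of the 10 members differed between diets at an adjusted p below 0.05 in edgeR's quasi-likelihood test, with Benjamini-Hochberg adjustment over all 14068 genes. For red against control, 0 of 10 were called, where 0.149% of all genes were, and 2 of 10 had an unadjusted p below 0.05 (Cyp4a12b and Cyp4a32), where 13.3% of all genes did. For tangerine against control, 0 of 10 were called beside 0.0142% of all genes, and 2 of 10 had an unadjusted p below 0.05 (Cyp4f14 and Cyp4v3) beside 5.47%. Tangerine against red gave 0 of 10 beside 1.71%, with Cyp4a12b alone at an unadjusted p below 0.05 beside 15.1%. Both tomato diets together against control gave 0 of 10 beside 0.00711%, with Cyp4f14 and Cyp4v3 at an unadjusted p below 0.05 beside 6.77%. The test for any difference among the 3 diets called 0 of 10 beside 1.18% of all genes. DESeq2 also called 0 members in each of the 4 contrasts, where 1.29%, 0.0828%, 2.89% and 0.127% of the genes with an adjusted p were called. In DESeq2 2, 2, 1 and 3 members had an unadjusted p below 0.05 in the same order, beside 13.3%, 5.76%, 15.3% and 7.08% of all genes. Without red 186, tangerine 198 and tangerine 216, edgeR again called 0 of 10 in each contrast, as it did without tangerine 192 in addition.

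The estimates of the members leaned to one side without passing the test. Against control, 9 of 10 were positive on each tomato diet and 10 of 10 on both together, with median log2 fold changes of 0.26 for red, 0.16 for tangerine and 0.17 for both, where the median over all genes was -0.0047, -0.012 and -0.0092. For tangerine against red, 6 of 10 were positive and the median was 0.05. The lean depended on the measure, on the model and on single livers. With the PPARA target score described below as a covariate, 5 of 10 were positive on red (median 0.051) and 6 of 10 on tangerine powder (median 0.055). On tangerine powder 5 of 10 estimates were positive without tangerine 226, and the ratio of medians was above 1 for 7 of 10, not for Cyp4a10, Cyp4a14 and Cyp4a31. In limma-voom 8 of 10 were positive on red, 6 on tangerine and 7 on both, with Cyp4a10 and Cyp4a14 negative in all 3. The 3 contrasts share their libraries and are not separate evidence, and counts of the similar genes may mix. Nor are the 10 members separate, because several varied together (r = 0.946 for Cyp4a10 and Cyp4a14). The share of all genes with a positive estimate is not given here.

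**Figure D3:**
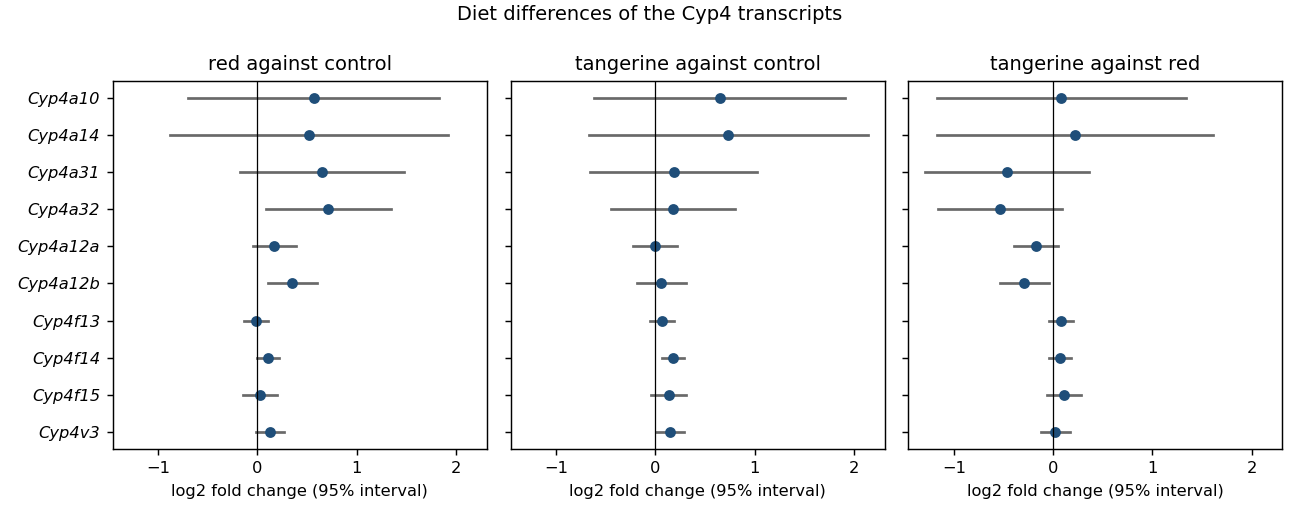
Log2 fold change of each member with its 95% interval from the edgeR fit, for red against control, tangerine against control and tangerine against red. The interval of Cyp4a14 runs from -0.88 to 1.92 on red powder, and those of the Cyp4f genes and Cyp4v3 are narrow and near 0.

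By role, the widest uncertainty lay on the inducible pair. On red powder the log2 fold change against control was 0.57 ± 0.62 (SE) for Cyp4a10 and 0.52 ± 0.69 for Cyp4a14, with edgeR adjusted p of 0.739 and 0.789 and 95% intervals of -0.70 to 1.83 and -0.88 to 1.92. On tangerine powder it was 0.65 ± 0.62 for Cyp4a10 and 0.74 ± 0.69 for Cyp4a14, with an edgeR adjusted p of 0.9999 for both. Leaving out tangerine 226 took the tangerine estimates to -0.03 and 0.05. In limma-voom with sample weights, which works on log values, all 4 estimates were negative: -0.57 and -1.0 on red, -0.56 and -0.78 on tangerine for Cyp4a10 and Cyp4a14.

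For Cyp4a31 the red estimate was 0.65 ± 0.41 (edgeR adjusted p = 0.515), and for Cyp4a32 it was 0.72 ± 0.31 (adjusted p = 0.306, 95% interval 0.09 to 1.34). Tangerine against red gave Cyp4a32 a log2 fold change of -0.54 ± 0.31 (adjusted p = 0.412). Without red 175, its highest liver, the red estimate of Cyp4a32 was 0.45. Unadjusted, the red difference of Cyp4a32 had p = 0.026 in edgeR, and neither difference passed the adjustment over all genes.

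Cyp4a12b had a log2 fold change of 0.35 ± 0.12 on red powder against control (edgeR p = 0.0059 unadjusted, 0.179 adjusted, 95% interval 0.11 to 0.60), from 47.2 ± 10.0 to 60.3 ± 8.64 CPM. On tangerine powder it averaged 49.3 ± 13.2 CPM, and tangerine against red gave -0.29 ± 0.12 (edgeR p = 0.0206 unadjusted, 0.226 adjusted). Its near-copy Cyp4a12a had 0.17 ± 0.11 on red powder (adjusted p = 0.522), from 439 ± 79.8 to 494 ± 88.8 CPM, and 438 ± 91.6 CPM on tangerine powder. With the counts of both genes summed, the red estimate was 0.19. In limma-voom Cyp4a12b passed on red powder, at a log2 fold change of 0.41 and an adjusted p of 0.0176, in a fit that called 2 of 10 members and 10.5% of all genes for red against control.

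Cyp4f14 averaged 342 ± 22.5 CPM in control, 368 ± 38.8 CPM in red and 387 ± 32.2 CPM in tangerine livers. Its log2 fold change on tangerine powder was 0.18 ± 0.06 (edgeR p = 0.0027 unadjusted, 0.587 adjusted), and on red powder it was 0.10 ± 0.06 (adjusted p = 0.411), where limma-voom gave 0.14 with an adjusted p of 0.0491. Cyp4v3 averaged 195 ± 24.8, 213 ± 28.5 and 216 ± 19.0 CPM in control, red and tangerine livers, with log2 fold changes of 0.13 ± 0.07 on red and 0.15 ± 0.07 on tangerine powder (adjusted p = 0.448 and 0.879). Over both tomato diets the estimates were 0.14 ± 0.05 for Cyp4f14 and 0.14 ± 0.06 for Cyp4v3 (adjusted p = 0.562 and 0.695). Cyp4f15 averaged 98.8 ± 12.0, 100.4 ± 9.62 and 108 ± 21.6 CPM, with 0.13 ± 0.09 on tangerine powder (adjusted p = 0.960). The 95% interval of Cyp4f14 on red powder was -0.01 to 0.22, against -0.88 to 1.92 for Cyp4a14.

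Genes of the same pathway gave the same count of calls. Of the 34 further PPARA targets listed, 33 were tested and 0 were called by edgeR in any of the 4 contrasts, with 5 at an unadjusted p below 0.05 on red powder (all higher, beside 13.3% of all genes), 0 on tangerine powder (beside 5.47%) and 9 between the tomato diets (1 higher and 8 lower on tangerine, beside 15.1%). Their median log2 fold change was 0.11 on red and -0.03 on tangerine powder. The smallest p values were for tangerine against red: Plin2, a lipid droplet coat protein, at -0.43 ± 0.12 (adjusted p = 0.0576), Pdk4, the kinase that shuts pyruvate dehydrogenase, at -1.16 ± 0.33 (adjusted p = 0.0590), and Crat, carnitine acetyltransferase, at -0.73 ± 0.23 (adjusted p = 0.0892). Of 16 partners in omega-oxidation, which carry the hydroxylated acids on, 0 were called in any contrast, and 5 (3 higher, 2 lower), 0 and 7 (4 higher, 3 lower) had an unadjusted p below 0.05 in the same 3 contrasts. Of 16 regulators, 0 were called, and 4 (2 higher, 2 lower), 1 (higher) and 5 (2 higher, 3 lower) had an unadjusted p below 0.05.

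Among the regulators, Ppara itself averaged 133 ± 40.8, 146 ± 35.2 and 167 ± 47.2 CPM in control, red and tangerine livers, and its log2 fold change of 0.33 ± 0.16 on tangerine powder did not pass (edgeR adjusted p = 0.890). Its partner Rxra averaged 431 ± 49.6, 409.9 ± 48.5 and 444 ± 60.9 CPM, with its smallest p for tangerine against red (0.11 ± 0.07, adjusted p = 0.472). Ppargc1a, a coactivator of the fasting response, averaged 16.5 ± 5.27, 12.0 ± 2.78 and 15.3 ± 4.82 CPM, with -0.46 ± 0.17 on red powder (adjusted p = 0.218).

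From liver to liver, 4 of the Cyp4a genes followed the level of other PPARA targets. A PPARA target score was formed as the first principal component of log2 CPM of the 33 tested targets, without any Cyp4 gene, and it held 55.9% of their variance. The score averaged -0.47 ± 3.30 in control, 1.27 ± 4.82 in red and -0.80 ± 4.68 in tangerine livers and did not pass a test between diets (permutation p = 0.314 for red and 0.842 for tangerine against control). With diet in the model, 4 of 10 members had a slope on this score at an edgeR adjusted p below 0.05, all upward, where 6.48% of the other genes had one and 3.78% had one upward.

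Cyp4a14 rose by 1.31 ± 0.21 log2 units per SD of the score (edgeR adjusted p = 5.26e-05), Cyp4a10 by 1.20 ± 0.19 (5.2e-05), Cyp4a31 by 0.87 ± 0.08 (6.2e-10) and Cyp4a32 by 0.67 ± 0.06 (3.14e-10). The order of the slopes was that of the spread between livers. Cyp4f15 had 0.10 ± 0.03 and did not pass (adjusted p = 0.0615), and the other 5 members had slopes between -0.04 and 0.07. Cyp4a12a and Cyp4a12b, in the same chromosome 4 cluster, were at 0.07 ± 0.04 and 0.07 ± 0.05 (adjusted p = 0.400 and 0.447). All 4 calls held with each of the 36 libraries left out in turn, with the growth hormone score described below in the model, and in limma-voom.

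**Figure D4:**
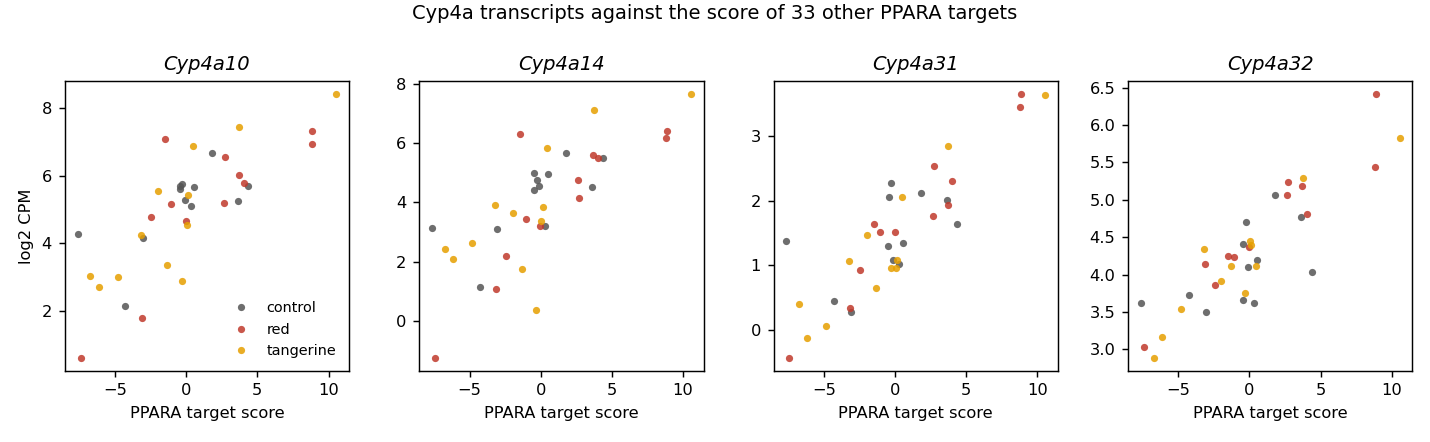
Log2 CPM of Cyp4a10, Cyp4a14, Cyp4a31 and Cyp4a32 against the PPARA target score, an axis in arbitrary units built from 33 other genes, 1 point per liver coloured by diet. The points rise from red 156 near the lower left to tangerine 226 at the right of each panel, with the 3 diets intermixed.

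The relation was seen within each diet. After removal of the diet means, Pearson's r with the score over 36 livers was 0.789 for Cyp4a10 (Spearman's rho 0.761), 0.774 for Cyp4a14 (0.770), 0.868 for Cyp4a31 (0.797) and 0.876 for Cyp4a32 (0.845). Each had a permutation p of 1e-05, the smallest that 100000 permutations can give, among 30 relations of 10 members with 3 scores. For Cyp4a14, r was 0.712 in control, 0.838 in red and 0.734 in tangerine livers. Without red 156 and tangerine 226, the 2 livers farthest from the median score once the diet means were removed, r was 0.701, 0.683, 0.806 and 0.824 in the order above. Reads that fit several genes may be shared among Cyp4a10, Cyp4a31 and Cyp4a32, and their part in these values was not tested.

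Single livers show the range. Red 156, with 0.354 CPM of Cyp4a14 and 1.45 CPM of Cyp4a10, had 1.34 CPM of Acot1, a peroxisome proliferator-induced acyl-CoA thioesterase, and 7.43 CPM of Vnn1, a pantetheinase. Tangerine 226, with 200 CPM of Cyp4a14 and 341 CPM of Cyp4a10, had 18.3 CPM of Acot1 and 35.8 CPM of Vnn1. Other targets differed less between the same 2 livers or the other way: Plin2 was at 386 CPM in red 156 and 579 CPM in tangerine 226, and Pdk4 at 14.6 and 9.16 CPM. Red 186, with 79.9 CPM of Cyp4a14, had a PPARA target score of only -1.48, and it is the library with the T cell and adipocyte markers.

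Across the 33 targets, the correlation with Cyp4a10 was positive for 32, with a median r of 0.645, where the median over all genes was 0.00065. For Cyp4a14 it was positive for 32 (median 0.633), for Cyp4a31 for 33 (0.718) and for Cyp4a32 for 32 (0.712). Acadm, the medium chain acyl-CoA dehydrogenase, was the most like target of Cyp4a10, Cyp4a14 and Cyp4a31 (r of 0.859, 0.842 and 0.895). Cyp4f14 was positive for 4 of 33 (median -0.24) and Cyp4f15 for 29 of 33 (median 0.434). Cyp4a12a and Cyp4a12b were also positive for 29 of 33 each, at lower medians of 0.180 and 0.167. Cyp4f13 was positive for 18 (median 0.034) and Cyp4v3 for 11 (median -0.080).

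A growth hormone score was formed in the same way from 17 male-biased genes that depend on pulses of growth hormone, again without Cyp4 genes (51.1% of their variance). It did not pass a test between diets (permutation p = 0.450 for red and 0.0962 for tangerine against control, unadjusted). On it, 3 of 10 members had a slope at an edgeR adjusted p below 0.05, where 4.46% of the other genes did: Cyp4a14 at -1.24 ± 0.30 per SD (adjusted p = 0.0113), Cyp4a10 at -1.12 ± 0.26 (0.0094) and Cyp4f14 at 0.07 ± 0.02 (0.0287). Cyp4a12a and Cyp4a12b, the members known as male-predominant and growth hormone-dependent, had slopes of -0.01 ± 0.05 and 0.06 ± 0.05 (adjusted p = 0.927 and 0.520). Diet-centred r with this score was -0.745 for Cyp4a14 (rho -0.748), -0.740 for Cyp4a10 (rho -0.757), each with a permutation p of 1e-05, and 0.582 for Cyp4f14 (rho 0.598, permutation p = 0.00019).

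Without red 177 and red 186, the 2 livers farthest from the median of the growth hormone score once the diet means were removed, r was -0.730 for Cyp4a14, -0.725 for Cyp4a10 and 0.386 for Cyp4f14. Leaving out red 186 alone ended the call of Cyp4f14 (slope 0.06, edgeR adjusted p = 0.132). The growth hormone score and the PPARA target score were themselves correlated at r = -0.453 after removal of the diet means, and with both in the model Cyp4a14 and Cyp4a10 still had slopes of -0.91 and -0.79 on the growth hormone score.

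A clock score from 15 core clock and clock output genes, oriented so that Dbp is high, did set red livers apart from the other 2 diets. It averaged 0.78 ± 2.94 in control, -2.56 ± 2.16 in red and 1.79 ± 2.53 in tangerine livers (permutation p = 0.0058 between red and control and 0.00028 between the 2 tomato diets, 0.026 and 0.0025 after adjustment over the 9 tests of scores between diets). Between tangerine and control the score did not pass (permutation p = 0.377, adjusted 0.565). Of the 10 members, 1 had a slope on it, where 7.23% of the other genes did: Cyp4f15, at 0.14 ± 0.04 log2 units per SD (edgeR adjusted p = 0.0228, r = 0.523, rho = 0.556, permutation p = 0.00105 and 0.00051). Without tangerine 217, the liver with the highest Cyp4f15, the slope was 0.11 (adjusted p = 0.0847), and without red 186, tangerine 198 and tangerine 216 it was 0.12 (adjusted p = 0.0592), or 0.11 (adjusted p = 0.0807) without tangerine 192 as well. With the clock score as a covariate, the red estimate against control was 0.43 for Cyp4a12b and 0.96 for Cyp4a32, and 0 of 10 members were called in each contrast.

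**Figure D5:**
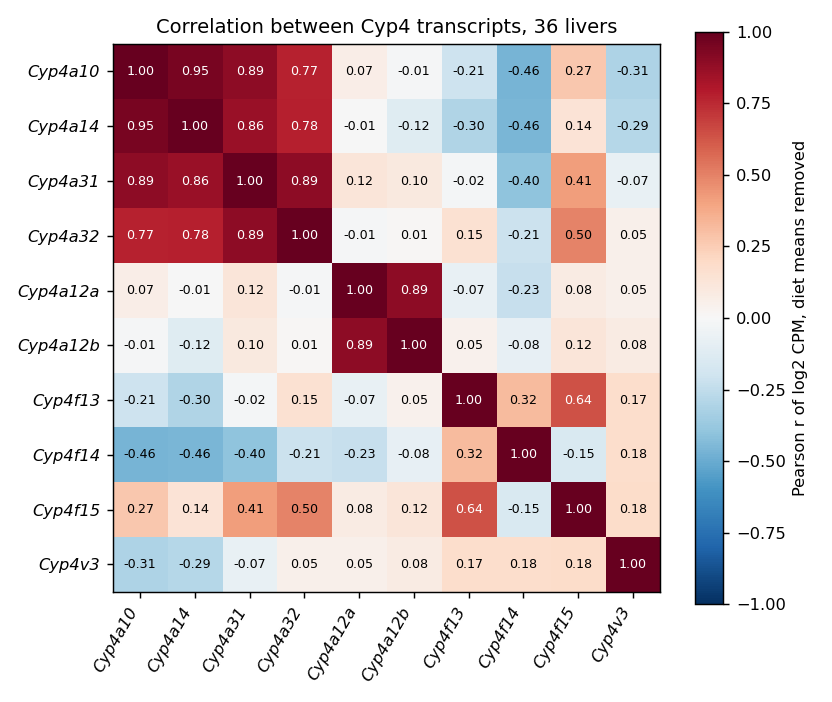
Pearson's r of log2 CPM between each pair of the 10 Cyp4 genes over 36 livers after removal of the diet means, as a colour and a number. Cyp4a10, Cyp4a14, Cyp4a31 and Cyp4a32 form 1 block, Cyp4a12a and Cyp4a12b another, and Cyp4f13 pairs with Cyp4f15.

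Among themselves, Cyp4a10, Cyp4a14, Cyp4a31 and Cyp4a32 varied together, as did Cyp4a12a with Cyp4a12b and Cyp4f13 with Cyp4f15. Over 45 pairs, Cyp4a10 and Cyp4a14 had the highest r, 0.946 (rho 0.911), and it was 0.943 to 0.948 within the single diets. Cyp4a31 and Cyp4a32 had r = 0.894, Cyp4a10 and Cyp4a31 had 0.891, and Cyp4a12a and Cyp4a12b had 0.892 (permutation p = 1e-05 for each, unadjusted, the smallest that can be given). Reads that fit several genes may be shared among Cyp4a10, Cyp4a31 and Cyp4a32, and between Cyp4a12a and Cyp4a12b. The part of such reads in these correlations was not tested. Cyp4a10 and Cyp4a12a, in the same cluster on chromosome 4, had r = 0.07, with values of opposite sign within diets: -0.468 in control, 0.519 in red and -0.012 in tangerine livers. Cyp4f13 and Cyp4f15 had r = 0.639 (rho 0.566, permutation p = 4e-05), 0.661 to 0.723 within diets, and 0.571 without control 137 and red 186. Cyp4f15 was also correlated with Cyp4a32 (r = 0.500, rho 0.524, permutation p = 0.010 after adjustment over the 45 pairs), at 0.223 to 0.684 within diets. With Cyp4a31 it had r = 0.415 (adjusted permutation p = 0.045) and rho 0.372, which did not pass (adjusted permutation p = 0.096). Cyp4f15, Cyp4f13 and Cyp4a32 are the members with the strongest correlations with the cholangiocyte markers given above, whose part in these pairs was not tested. Cyp4f14 ran opposite to Cyp4a10 (r = -0.465, rho -0.498, permutation p = 0.0046), at -0.07 in the diet with the weakest relation and -0.75 in the one with the strongest.

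The promoters of Cyp4f13 and Cyp4f15, which varied together, and of Cyp4a32, the one of the 4 genes with a slope on the PPARA target score for which a sequence was matched, are shown. They run from 250 bases before to 50 bases after the annotated start, 5′ to 3′ on the gene's strand, and come from RefSeq (GRCm38.p6). Capitals mark ATTGG, the CCAAT box read on the other strand, which was added to the search after the sequences had been seen.
Cyp4f13 (chr17:32947312-32947611, minus strand): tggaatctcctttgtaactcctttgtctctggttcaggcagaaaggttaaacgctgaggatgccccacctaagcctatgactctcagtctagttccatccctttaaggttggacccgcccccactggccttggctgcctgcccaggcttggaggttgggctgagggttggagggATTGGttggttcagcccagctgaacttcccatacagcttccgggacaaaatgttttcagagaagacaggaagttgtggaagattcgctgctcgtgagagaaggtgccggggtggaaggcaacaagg
Cyp4f15 (chr17:32685409-32685708, plus strand): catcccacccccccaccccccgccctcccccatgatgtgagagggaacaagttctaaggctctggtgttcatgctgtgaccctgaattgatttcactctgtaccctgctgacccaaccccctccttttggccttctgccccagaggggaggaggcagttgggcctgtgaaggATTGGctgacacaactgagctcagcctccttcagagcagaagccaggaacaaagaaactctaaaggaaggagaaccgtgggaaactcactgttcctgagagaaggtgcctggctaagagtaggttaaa
Cyp4a32 (chr4:115600688-115600987, plus strand): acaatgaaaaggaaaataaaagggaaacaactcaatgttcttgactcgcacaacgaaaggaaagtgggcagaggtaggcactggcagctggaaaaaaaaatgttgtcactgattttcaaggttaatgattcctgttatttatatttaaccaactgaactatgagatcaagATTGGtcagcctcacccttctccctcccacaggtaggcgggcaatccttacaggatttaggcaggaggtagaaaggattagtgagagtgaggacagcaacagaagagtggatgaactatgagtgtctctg
ATTGG or CCAAT was present in 37.4% of 32851 promoters of this length, so these genes share it with many others. It began at -76 from the start in Cyp4f13, -78 in Cyp4f15 and -80 in Cyp4a32, counted so that the first base before the start is -1, and it was also found in the windows of Cyp4f14. Of the 10 members, 5 (Cyp4a32, Cyp4v3, Cyp4f13, Cyp4f14 and Cyp4f15) were matched in the promoter table. None of their windows held AGGTCA, the nuclear receptor half-site, on either strand (16.3% of all promoters did), and so none held the direct repeat that PPARA binds with RXRA, which is AGGTCA, any 1 base and AGGTCA again (0.0396%), or the ROR element, which ends in AGGTCA (0.219%). CACGTG, the E-box of clock factors, was in the Cyp4v3 window at -171 (7.15% of promoters), and TTCNNNGAA, the STAT5 pattern, in that of Cyp4f13 at -22 (8.30% of promoters). A match of letters is a description and not a bound site.

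By the same diet-centred r over 36 livers, the genes outside the 10 that varied most like Cyp4a10 were Retsat, a retinol saturase (r = 0.910), Cyp2c39 (0.874) and Cyp2c38 (0.871). Retsat, Cyp2c39 and Cyp2c38 were also the 3 most like Cyp4a14 (0.881, 0.878 and 0.869). Cyp4a31 was most like Acadm (0.895), Retsat (0.846) and Hadha (0.841), and Cyp4a32 most like Slc22a5, the carnitine carrier (0.874), Eci2 (0.871) and Rab30 (0.864). For Cyp4a12a and Cyp4a12b the most like gene was Fitm1 (0.772 and 0.766), a lipid droplet protein. Cyp4f13 was most like Azgp1 (0.828), Cyp4f14 most like Cyp2c70 (0.783), Cyp4f15 most like Pbld1 (0.883) and Cyp4v3 most like C9 (0.673).

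Of 17 other Cyp4 family genes in the table, Cyp4b1, Cyp4f16 and Cyp4f17 passed the filter, and Cyp4f17 was called. It lies on chromosome 17 (chr17:32506050-32530143, plus strand), in the cluster of the Cyp4f members, and averaged 7.39 ± 1.38 CPM in control, 10.4 ± 1.58 in red and 7.09 ± 1.31 in tangerine livers. It had 4.93, 6.91 and 9.64 CPM as lowest, median and highest level in control livers and 7.93, 10.4 and 13.4 CPM in red livers. Cyp4f17 rose on red powder against control by 0.50 ± 0.10 on the log2 scale (edgeR adjusted p = 0.0196), and tangerine against red gave -0.56 ± 0.10 (adjusted p = 0.0051). Cyp4f17 also had a slope on the clock score, -0.19 ± 0.04 log2 units per SD (adjusted p = 0.006), and with that score as a covariate the red difference was 0.31 with an adjusted p of 0.287. Leaving out red 133, its highest liver, gave 0.46 with an adjusted p of 0.0509. Cyp4b1 averaged 11.3 ± 2.58, 11.5 ± 1.08 and 11.4 ± 2.52 CPM and Cyp4f16 averaged 1.64 ± 0.23, 1.69 ± 0.47 and 1.78 ± 0.61 CPM in control, red and tangerine livers, and neither was called in any contrast.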

How the data were processed

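The authors deposited 1 table of whole-number read counts per Ensembl gene identifier, with a column for each of the 36 libraries. Per the labels' protocols, RNA was extracted with Qiagen kits and libraries were made with a directional PerkinElmer kit. Per the submitters' processing notes, GRCm38.p6, FastQC, Trimmomatic and edgeR were used. The aligner, the counter, its strand setting and its rule for reads that fit several genes are not given in the sources used here.

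Identifiers were matched to GENCODE symbols, and 53620 of 53715 had one. Counts were filtered with filterByExpr, scaled by TMM and tested in 1 quasi-likelihood fit of all 36 libraries (edgeR 4.0.16, R 4.3.3), with Benjamini-Hochberg adjustment over 14068 genes and a threshold of 0.05. Each slope on a score came from such a fit with diet and the score as terms, where a score is a first principal component of log2 CPM (prior count 2). RPKM used the union of annotated exons. Correlations used log2 CPM minus the diet mean, with 100000 permutations (scipy 1.17.1). Alternatives were DESeq2 1.42.0, limma 3.58.1 with voom weights, other scaling and filters, covariates, summed counts of similar genes and each library left out. The fits were tested on simulated data drawn with the spread that is usual for genes of the same level. That spread was 15.8% for Cyp4a14 and 16.0% for Cyp4a10, whose own values were 111% and 99.2%. The simulation therefore cannot show how the fits handle genes as variable as these. Depth of 21290169 to 33810573 counts per library sets the precision of low values: 3 counts are 0.15 CPM in the smallest library.

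The members and the gene lists were chosen with earlier results of these data known. Named beside the members are every other Cyp4 gene that passed the filter, list genes past the threshold or with the 3 smallest p values, Ppara, Rxra, Ppargc1a, and the 3 genes most like each member. Acot1, Vnn1, Plin2 and Pdk4 in single livers were picked after their values were seen. The lists of other cell types served for the marker check.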

Additional observations from a re-analysis of the deposited data

How the results depend on the processing

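No paired analysis was possible because no mouse number occurs in more than 1 diet. The count of members called was 0 in every alternative and every fit without 1 library, except that limma-voom called 2 for red against control (Cyp4a12b, log2 fold change 0.41, and Cyp4f14, 0.14). The lowest adjusted p among the members, over fits without 1 library, was 0.0983 for red against control, 0.487 for tangerine against control, 0.109 for tangerine against red and 0.345 for both. Of 1617 alternative values, 1587 kept their direction and their side of the threshold. Signs changed for several members. With the PPARA target score as a covariate, Cyp4a10 and Cyp4a14 were at -0.080 and -0.18 on red and -0.059 and -0.00030 on tangerine powder. Cyp4a31 was at -0.039 on red powder and also negative on tangerine, and Cyp4f15 was negative on red. In limma-voom Cyp4a10 and Cyp4a14 were at -0.57 and -1.0 on red and -0.56 and -0.78 on tangerine powder. There Cyp4a31 and Cyp4a32 were also negative on tangerine. Without tangerine 226, Cyp4a12b, Cyp4a31 and Cyp4a32 were negative on tangerine powder. With the clock score as a covariate, Cyp4f13, Cyp4f15 and Cyp4v3 were negative for tangerine against red. The cause was not tested. Without 1 library, Cyp4a10 on tangerine powder ranged from -0.026 to 0.84.

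The number of members with a slope was 4 or 5 on the PPARA target score in all settings. On the growth hormone score it was 2 to 4 without 1 library and 5 in limma-voom. On the clock score it was 0 to 1 without 1 library, 0 without red 186, tangerine 198 and tangerine 216 (and without tangerine 192 in addition), and 2 in limma-voom. The slope of Cyp4a14 on the growth hormone score was -1.04 (adjusted p = 0.0586) with a mean of z-scores, and that of Cyp4f14 was 0.07 (adjusted p = 0.0622) with the PPARA target score in the model. Cyp4f17 for tangerine against red was -0.30 (adjusted p = 0.239) with the clock score as a covariate. The level of Cyp4f13 was 41.6 RPKM with its longest transcript, and all other levels moved by less than 1 SD. Genes called by edgeR, of all tested, ranged from 13 to 127 for red against control and from 89 to 301 for tangerine against red without 1 library, and limma-voom called 1482 and 732. Depth limited Cyp4a31 and Cyp4a14 most, with 17 and 9 counts in red 156.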
